A study of Mus musculus with 8 samples.

Results

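The immediate early transcription factors examined here were Fos, Fosb, Fosl1, Fosl2, Junb, Egr1, Egr2, Egr3, Nr4a1 and Myc, a list of 10 genes taken by name. Of these, 9 had a locus of their own among the 35299 loci of the deposited expression table, and 8 were abundant enough to be tested among 19186 loci with a mean of at least 10 normalised reads. The locus of Egr3 also holds Bin3, so Egr3 was left out. Fosl1 had a locus but fell below the minimum for testing.

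Poly(A)-selected RNA was sequenced from the hearts of C57BL/6J mice aged 12 weeks, taken 2 weeks after surgery, from the border zone next to the infarct or the matching zone after a sham operation. Myocardial infarction (MI) hearts gave 4 libraries and sham-operated (Sham) hearts gave 4, described as biological replicates, and no genetic change or drug is named for either group. Groups follow the titles and the treatment field. The source field of the MI libraries names Sham, the free descriptions of 3 MI libraries name a sham infarct and that of Sham replicate 4 names an infarct, and only the Sham titles carry a remark that they were reanalysed, so that origin and infarction cannot be told apart. The values of Nppa, the natriuretic peptide gene that rises in strained heart muscle, followed the titles, with 372116 ± 80824 normalised reads in MI and 17713 ± 1464 in Sham hearts (SD, n = 4 each). Postn, a matrix gene of activated fibroblasts, averaged 98308 in MI and 5819 in Sham hearts, and Atp2a2, the calcium pump of heart muscle, averaged 1343825 in MI and 2594632 in Sham hearts, without overlap of the groups.

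Immediate early genes are transcribed within minutes of a stimulus from factors already present in the cell, among them SRF with its ELK partners and CREB, without new protein synthesis, and most of their mRNAs decay quickly. FOS and JUN proteins pair into the AP-1 factor, EGR proteins are zinc finger factors held back by NAB proteins, NR4A1 is an orphan nuclear receptor that can pair with RXR, and MYC pairs with MAX to drive growth genes. In heart muscle these genes are known to respond to stretch, adrenergic drive, injury and the handling of tissue.

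The promoters are shown because SRF acts through the CArG box and CREB through the motif TGACG, which is known as a CRE half-site. RefSeq windows on GRCm38.p6 from 250 bases before to 50 bases after the start are shown for 6 members, and capitals mark TGACG on either strand and CArG boxes.
Fos (chr12:85473640-85473939, plus strand): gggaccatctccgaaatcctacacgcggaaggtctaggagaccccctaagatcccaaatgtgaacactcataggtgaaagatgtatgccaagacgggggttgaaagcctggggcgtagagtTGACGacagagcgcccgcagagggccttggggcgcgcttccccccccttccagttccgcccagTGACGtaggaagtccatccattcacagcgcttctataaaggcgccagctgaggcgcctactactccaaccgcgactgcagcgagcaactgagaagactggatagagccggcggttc
Fosb (chr7:19309996-19310295, minus strand): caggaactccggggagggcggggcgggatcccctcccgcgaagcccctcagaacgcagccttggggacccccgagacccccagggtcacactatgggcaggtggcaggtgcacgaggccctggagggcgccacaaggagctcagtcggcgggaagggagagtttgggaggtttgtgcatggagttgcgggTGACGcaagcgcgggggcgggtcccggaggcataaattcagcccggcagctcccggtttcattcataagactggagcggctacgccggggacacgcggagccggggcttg
Fosl2 (chr5:32136222-32136521, plus strand): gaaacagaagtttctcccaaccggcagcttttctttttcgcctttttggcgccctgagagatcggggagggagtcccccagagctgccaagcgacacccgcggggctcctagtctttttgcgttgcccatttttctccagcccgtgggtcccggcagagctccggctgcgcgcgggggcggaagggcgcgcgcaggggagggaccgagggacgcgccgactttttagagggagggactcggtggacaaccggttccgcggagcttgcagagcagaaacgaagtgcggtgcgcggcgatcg
Junb (chr8:84978699-84978998, minus strand): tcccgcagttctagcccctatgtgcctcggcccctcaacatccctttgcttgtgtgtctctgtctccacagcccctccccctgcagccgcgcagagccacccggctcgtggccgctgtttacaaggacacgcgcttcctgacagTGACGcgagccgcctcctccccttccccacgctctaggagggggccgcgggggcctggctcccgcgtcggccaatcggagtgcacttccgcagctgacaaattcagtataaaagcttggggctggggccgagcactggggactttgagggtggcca
Egr2 (chr10:67537619-67537918, plus strand, 1 of 5 annotated starts): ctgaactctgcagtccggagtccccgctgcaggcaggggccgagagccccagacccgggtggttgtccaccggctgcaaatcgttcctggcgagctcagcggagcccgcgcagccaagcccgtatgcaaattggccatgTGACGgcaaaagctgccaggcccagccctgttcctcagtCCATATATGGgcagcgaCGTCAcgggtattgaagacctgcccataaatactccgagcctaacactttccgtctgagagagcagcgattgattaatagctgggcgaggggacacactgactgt
Nr4a1 (chr15:101266596-101266895, plus strand): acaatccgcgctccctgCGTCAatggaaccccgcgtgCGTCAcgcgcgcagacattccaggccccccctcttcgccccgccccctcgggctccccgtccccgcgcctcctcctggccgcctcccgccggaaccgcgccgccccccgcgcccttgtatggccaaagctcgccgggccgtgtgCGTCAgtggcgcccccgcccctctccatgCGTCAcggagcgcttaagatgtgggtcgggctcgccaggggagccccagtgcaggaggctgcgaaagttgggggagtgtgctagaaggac

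TGACG or its complement was found in 5 of the 6 windows printed, against 20.8% of 32851 promoters of the same length. The Egr2 window was chosen because it holds both motifs, so its own matches are not a like comparison with the shares of all promoters. Of the 5 Egr2 windows, 2 hold no TGACG. Nr4a1 held 4 matches, beginning 233, 213, 69 and 40 bases before the start, Fos held 2 at 129 and 66 bases, and the Egr2 window held 2 at 111 and 55 bases. Fosb had 1 match at 60 bases, Junb had 1 at 106 bases, and the Fosl2 window held none. A CArG box stood in the Egr2 window, 72 bases before the start, against 1.63% of all promoters. The EGR motif GCGNGGGCG was present in Fosb, Fosl2 and Nr4a1, against 5.55% of promoters, and the AP-1 motif TGANTCA, found in 7.81% of promoters, was in none of the 6. In the Fosb and Nr4a1 windows no letters of an EGR match were shared with a TGACG match. Myc and Fosl1 had no entry, and promoters on chromosome 18, where Egr1 lies, were not included. Sites more than 250 bases before the start were not examined, for Fos and the other members alike.

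The MI libraries held 165 to 190.2 M reads at the loci and the Sham libraries 108 to 161 M reads. Spearman correlations over loci were 0.989 to 0.994 among MI libraries, 0.988 to 0.992 among Sham libraries and 0.965 to 0.980 between groups. Along the first principal component, which held 61.9% of the variance, MI replicate 2 was placed at -34.8, the remaining 3 MI hearts between -62.4 and -63.2, and the Sham hearts between 42.6 and 65.2. Of the cell type markers tested, all 6 for fibroblasts were higher in MI hearts, 3 of 4 for cardiomyocytes were lower, and none of 5 for endothelial cells was called. All 4 lymphocyte, 3 of 4 neutrophil, 2 of 3 macrophage and 1 of 4 smooth muscle and pericyte markers were higher in MI hearts. All 4 lymphocyte markers overlapped between the groups. In such bulk tissue, fewer cells of a type and less RNA per cell cannot be told apart.

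Egr2, Fos, Myc, Egr1 and Junb were higher in the MI hearts, and Fosb, Fosl2 and Nr4a1 were not called in either direction. Thus 5 of the 8 tested members rose, where 20.8% of all tested loci did, and none fell, where 20.1% of all loci did and 40.9% changed in either direction (limma-trend, 2-sided, Benjamini-Hochberg adjusted p under 0.05 over all tested loci). At an unadjusted p under 0.05, 0 members were lower, and edgeR and DESeq2 on the recovered reads each called 4 members higher and 0 lower. Over all loci, edgeR called 22.3% higher and 19.0% lower, and DESeq2 called 22.6% higher and 21.5% lower. The median log2 difference of the 8 members was 1.03, against -0.02 over all tested loci. As the members were chosen with earlier results of these data known, members and all loci are not a like comparison. Values of MI and Sham libraries did not overlap for 3 members, Egr2, Myc and Junb, all higher in MI, as was the case for 19.7% of all tested loci.

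**Figure D1:**
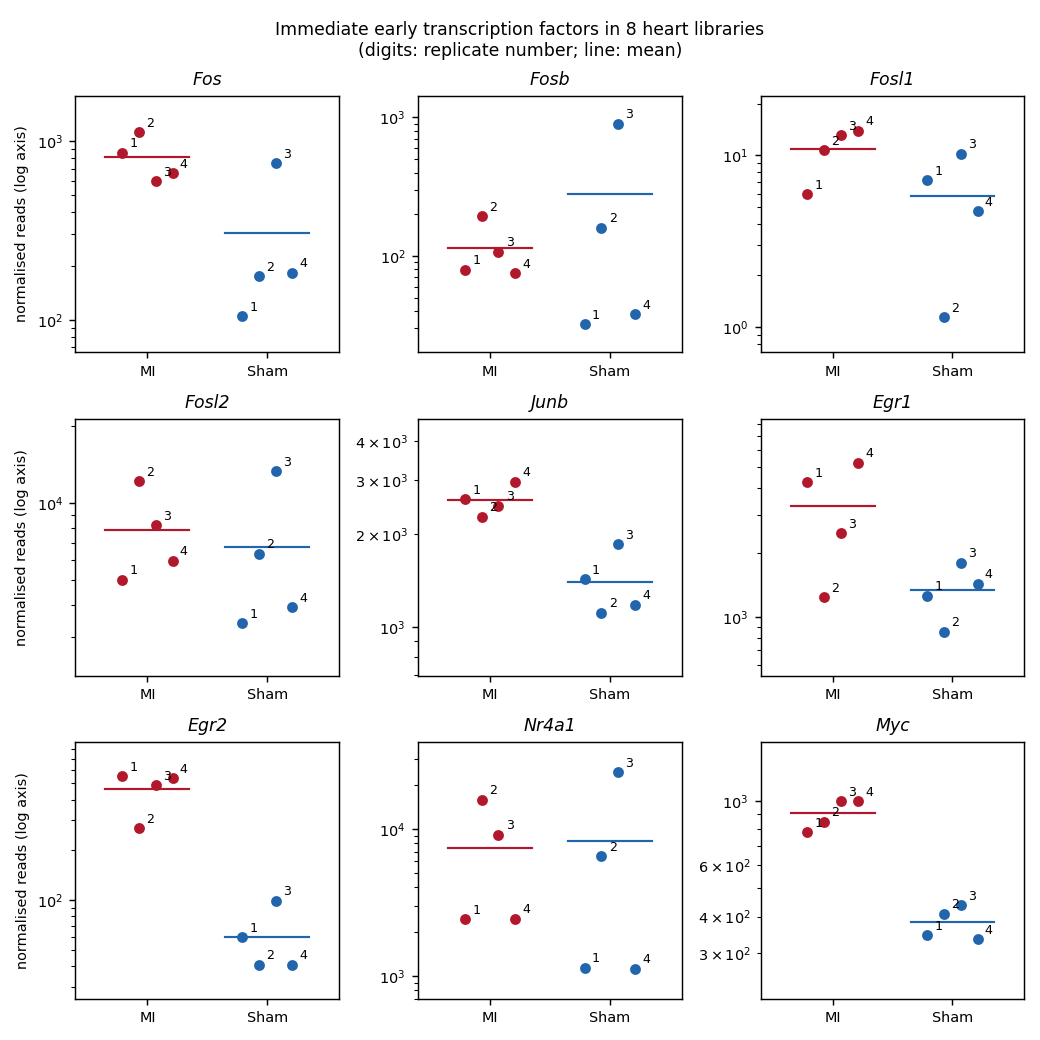
Normalised reads (log axis) of the 9 members with a locus of their own in each of the 4 MI and 4 Sham libraries; digits give the replicate and lines the group mean. Egr2, Myc and Junb have no overlap between groups, and Sham replicate 3 is the highest Sham library in every panel.

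Fos, the founding partner of JUN in AP-1 (mm9 chr12:86814851-86818219, plus strand), had 861.7, 1122.4, 595.4 and 662.3 normalised reads in MI replicates 1 to 4, against 105.0, 175.4, 752.6 and 182.9 in Sham replicates 1 to 4. Sham replicate 3 lay within the MI range, and the other Sham libraries were below every MI library. The log2 difference was 1.80 ± 0.49 (SE; limma adjusted p = 0.0136). The call was lost with edgeR (1.44, adjusted p = 0.052) and with DESeq2 (1.43, adjusted p = 0.0597), and without Sham replicate 3 the difference was 2.38.

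Fosb, a second FOS protein (mm9 chr7:19888045-19895394, minus strand), had 79.5, 194.3, 107.1 and 75.0 normalised reads in MI replicates 1 to 4, against 32.2, 160.6, 899.2 and 37.8 in Sham replicates 1 to 4. The highest Sham library was 27.9 times the lowest, and its value stood above every MI library. The log2 difference was -0.13 ± 0.88 (SE; limma adjusted p = 0.916), and without Sham replicate 3 it was 0.85 (adjusted p = 0.252). It was -1.29 with both edgeR (adjusted p = 0.276) and DESeq2 (adjusted p = 0.333), and -0.74 without Sham replicate 1.

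Fosl2, the FOS protein also called FRA2 (mm9 chr5:32438907-32461148, plus strand), had 5005.6, 12141.0, 8200.1 and 5939.9 normalised reads in MI replicates 1 to 4, against 3384.1, 6322.7, 13334.1 and 3918.0 in Sham replicates 1 to 4. Sham replicate 3 again exceeded all the MI libraries, and the groups overlapped. The log2 difference was 0.35 ± 0.40 (SE; limma adjusted p = 0.517), and leaving out 1 library at a time gave 0.09 (without Sham replicate 1) to 0.75 (without Sham replicate 3, adjusted p = 0.0759). It was 0.11 without MI replicate 2 and 0.16 without Sham replicate 4.

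Fosl1, or FRA1 (mm9 chr19:5447698-5455938, plus strand), was rare, with 5.97, 10.7, 13.2 and 14.0 normalised reads in MI replicates 1 to 4, against 7.16, 1.14, 10.2 and 4.73 in Sham replicates 1 to 4. Pooled over libraries, 54 reads in MI hearts gave 10.6 normalised reads (exact 95% Poisson interval 7.98 to 13.9), and 19 reads in Sham hearts gave 5.88 (3.54 to 9.19). Both intervals reflect counting error only, not the spread between animals. The exons of Fosl1 share 1211 of 1705 bases with the locus of Ccdc85b on the opposite strand, and whether reads were counted by strand is not given in the sources used here.

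Junb, a JUN protein that pairs with FOS (mm9 chr8:87498383-87504884, minus strand), had 2594.9, 2281.9, 2472.3 and 2959.9 normalised reads in MI replicates 1 to 4, against 1430.0, 1114.9, 1857.6 and 1180.9 in Sham replicates 1 to 4. All the MI libraries were above all the Sham libraries. The log2 difference was 0.91 ± 0.15 (SE; limma adjusted p = 0.000949), and it was called in all 19 alternative analyses. The assembled Junb locus reaches upstream of the annotated gene and lacks a part of its coding exon.

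Egr1, the most abundant of the EGR factors measured (mm9 chr18:35020861-35024610, plus strand), had 4270.5, 1237.7, 2459.1 and 5268.0 normalised reads in MI replicates 1 to 4, against 1258.1, 855.2, 1797.4 and 1436.4 in Sham replicates 1 to 4. MI replicate 2 lay inside the Sham range, and the other MI libraries were above all Sham libraries. The log2 difference was 1.16 ± 0.40 (SE; limma adjusted p = 0.0380). This call was lost in 7 of 19 alternatives, namely with a robust variance and in 6 of the 8 analyses that each left 1 library out, with log2 differences of 0.86 to 1.56 over the 8. Without MI replicate 2 the log2 difference was 1.56 (adjusted p = 0.00173).

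Egr2, known in the mouse for its part in Schwann cell myelination (mm9 chr10:67000617-67004936, plus strand), had 553.5, 268.5, 487.5 and 536.7 normalised reads in MI replicates 1 to 4, against 59.7, 41.0, 98.9 and 41.0 in Sham replicates 1 to 4. Every MI library was above every Sham library, also MI replicate 2, the lowest of its group. The ratio of the group means was 7.67 and the log2 difference was 2.96 ± 0.31 (SE; limma adjusted p = 6.09e-05), the largest of the 8 tested members.

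Nr4a1, the nuclear receptor also called NUR77 (mm9 chr15:101084668-101105223, plus strand), had 2418.6, 15758.7, 9104.4 and 2440.7 normalised reads in MI replicates 1 to 4, against 1135.2, 6520.8, 24355.8 and 1116.3 in Sham replicates 1 to 4. The highest library was 6.52 times the lowest in MI hearts and 21.8 times in Sham hearts, and the groups overlapped. The log2 difference was 0.52 ± 0.96 (SE; limma adjusted p = 0.703). Its sign turned with edgeR (-0.14, adjusted p = 0.925) and with DESeq2 (-0.14, adjusted p = 0.931), and without Sham replicate 3 it was 1.42 (adjusted p = 0.187).

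Myc, the growth-promoting partner of MAX (mm9 chr15:61816896-61821916, plus strand), had 780.1, 848.2, 995.7 and 996.5 normalised reads in MI replicates 1 to 4, against 346.2, 410.0, 438.8 and 334.3 in Sham replicates 1 to 4. All the MI libraries were above all the Sham libraries, with little spread in either group. The ratio of the group means was 2.37 and the log2 difference was 1.24 ± 0.13 (SE; limma adjusted p = 5.13e-05). Myc and Egr2 were called in all 19 alternatives.

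**Figure D2:**
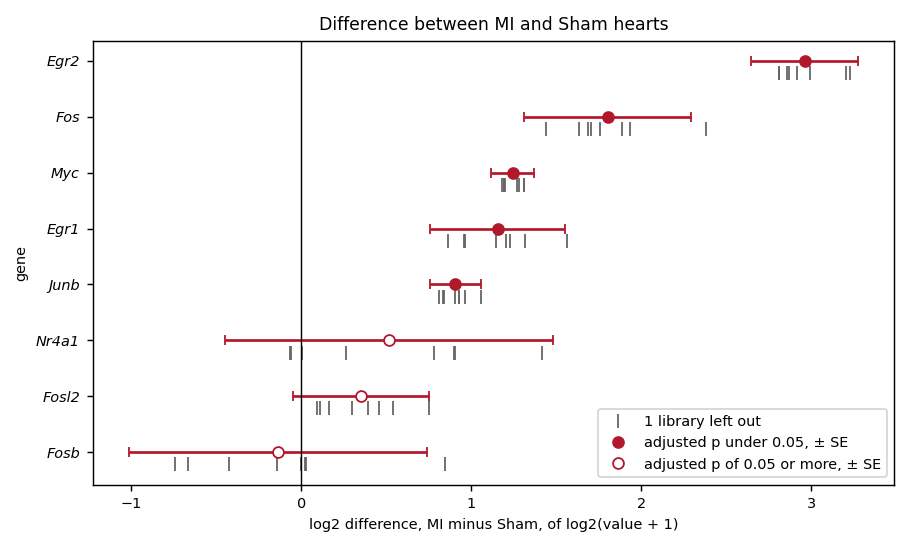
Difference in log2(value + 1), MI minus Sham, for the 8 tested members, with bars for the SE and ticks for the analyses that left 1 library out. The 5 filled points have a limma adjusted p under 0.05, and the ticks of Fosb and Nr4a1 lie on both sides of 0.

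Except for Myc, the tested members varied more between libraries of 1 group than most loci. Their within-group SD of log2(value + 1), pooled over both groups, had a median of 0.74, against 0.20 over all tested loci, and 5 of the 8 members, Nr4a1, Fosb, Fos, Fosl2 and Egr1, were above 90% of the loci. The SD was 1.81 for Nr4a1 and 1.63 for Fosb, against 0.18 for Myc and 0.26 for Junb. Without Sham replicate 3 the median over the members was 0.477.

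Sham replicate 3 was the highest Sham library for all 8 tested members, whereas it was the highest Sham library at 34.2% of all tested loci. MI replicate 2 was the highest MI library for Fos, Fosb, Fosl2 and Nr4a1 and the lowest for Junb, Egr1 and Egr2. It was the highest MI library at 27.8% of all tested loci, and the share of loci at which it was the lowest was not counted. MI replicate 4 was the highest for Junb, Egr1 and Myc. Thus in MI replicate 2 Fos, Fosb, Fosl2 and Nr4a1 stood high while Egr1 and Egr2 stood low. Fosl1, the other FOS gene, was at 0.03 from its group mean there on the log2 scale.

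Other measures moved with these libraries. All 7 tested heat shock genes were highest in Sham replicate 3 among the Sham libraries, and their summed level there was 390776 normalised reads, against 247499 to 265459 in the other Sham libraries and 229466 to 306436 in MI hearts. The 4 neutrophil markers summed to 3040 normalised reads in MI replicate 2, against 855 to 1412 in the other MI libraries and 287 to 616 in Sham hearts, 349 of them in Sham replicate 3. The 6 fibroblast markers summed to 268571 in MI replicate 2, against 324769 to 411560 in the other MI libraries. The 4 lymphocyte markers summed to 184 there, against 414 to 569 in the other MI libraries and 125 to 255 in Sham hearts. The 3 macrophage markers summed to 11888 there, against 13578 to 15572 in the other MI libraries and 9378 to 11777 in Sham hearts. The 4 cardiomyocyte markers had their highest sums in these libraries, 3157192 in MI replicate 2, against 2605685 to 3051850 in the other MI libraries, and 4288132 in Sham replicate 3, against 3567332 to 3939455 in the other Sham libraries. The 4 smooth muscle and pericyte markers summed to 123709 in MI replicate 2, against 123735 to 148174 in the other MI libraries. In Sham replicate 3 they summed to 123091, against 131657 to 139538 in the other Sham libraries. The 5 endothelial markers summed to 106497 in Sham replicate 3, against 113139 to 143921 in the other Sham libraries. In MI replicate 2 they summed to 120502, against 116913 to 137483 in the other MI libraries. The part of these measures in the members' values was not tested.

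**Figure D3:**
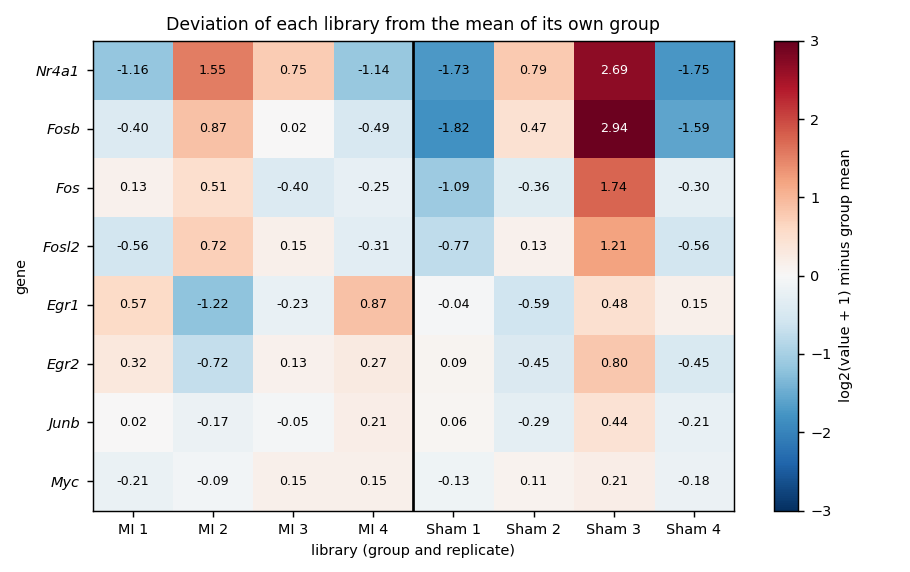
Deviation of each library from the mean of its own group in log2(value + 1), for the 8 tested members (rows) and the 4 MI and 4 Sham libraries (columns). Sham replicate 3 is positive for all 8 members, up to 2.94 for Fosb, and MI replicate 2 is 1.55 for Nr4a1 and -1.22 for Egr1.

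Nr4a1 had the largest spread of the members, and 5 genes outside the list followed it most closely over the 8 libraries. Likeness was the root mean square difference in group-centred log2(value + 1) over 12817 named genes with a mean of at least 50. It was 0.43 for Irs2, the insulin receptor substrate gene, 0.50 for Sik1, a salt-inducible kinase, 0.69 for Atf3, a stress-induced bZIP factor, 0.77 for Ddit4, an mTORC1 inhibitor, and 0.80 for Runx3, a RUNT family factor. Fosb, a member, was at 0.52.

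Irs2 had 1608, 8093, 4861 and 1858 normalised reads in MI replicates 1 to 4, against 1524, 4571, 19723 and 2043 in Sham replicates 1 to 4. Sik1 had 3750, 18756, 12282 and 4683 in MI replicates 1 to 4, against 3592, 13171, 24409 and 3242 in Sham replicates 1 to 4. In both genes MI replicate 2 and Sham replicate 3 were the highest of their groups, and the groups overlapped. As the genes were picked for the library profile of Nr4a1, these peaks and the wide spread within groups follow from the choice. None of these 5 genes was called between the groups, with limma adjusted p of 0.771 for Irs2, 0.978 for Sik1, 0.372 for Atf3, 0.926 for Ddit4 and 0.154 for Runx3.

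Levels per kilobase were divided by all exon bases assembled at a locus, 9027 over 6 transcripts for Nr4a1 and 7041 over 3 for Fosl2. The order of the members depends on these lengths, and lengths of single mRNAs were not tested. On this measure Fosl2 had the highest mean of the members in both groups, with 1111 ± 451 normalised reads per kb in MI and 957 ± 650 in Sham hearts (SD, n = 4 each). It was the highest in only 1 of the 4 MI libraries, replicate 3, while Egr1 led in replicates 1 and 4 and Nr4a1 in replicate 2. In MI hearts Egr1 (1077 ± 588), Nr4a1 (823 ± 707) and Junb (644 ± 71.5) came next, and the ranges of these 4 neighbours overlapped. Below them, and without overlap with Junb, stood Fos (387 ± 113) and Myc (364 ± 43.7), whose ranges overlapped, then Egr2 (156 ± 44.4), Fosb (30.2 ± 14.7) and Fosl1 (6.42 ± 2.11), each apart from its neighbour. In Sham hearts the order after Fosl2 was Nr4a1 (917 ± 1220), Egr1 (435 ± 127) and Junb (349 ± 84.1), whose ranges overlapped from neighbour to neighbour. Junb was apart from Myc (154 ± 20.2), after which Fos (145 ± 144), Fosb (74.8 ± 110.0) and Egr2 (20.3 ± 9.21) overlapped in turn, and Fosl1 (3.41 ± 2.26) was apart.

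Among the 4 FOS family genes, Fos made up 26.2 ± 7.14% of the summed level per kb in MI hearts, against 11.3 ± 3.04% in Sham hearts (SD, n = 4 each). Its share ranged from 19.2 to 35.9% in MI and from 8.18 to 14.4% in Sham libraries, so the groups did not overlap, Sham replicate 3 included. Fosl2 made up 71.4 ± 7.00% in MI and 84.2 ± 5.77% in Sham hearts, and these ranges overlapped. Fosb reached 9.54% in Sham replicate 3, against 1.67 to 2.22% in MI libraries. Of the summed level of Egr1 and Egr2, Egr2 held 14.2 ± 4.18% in MI and 4.42 ± 1.08% in Sham hearts, with ranges of 9.55 to 18.3% and 2.87 to 5.39% that did not overlap. These shares rest on the same assembled exon lengths and were not tested.

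**Figure D4:**
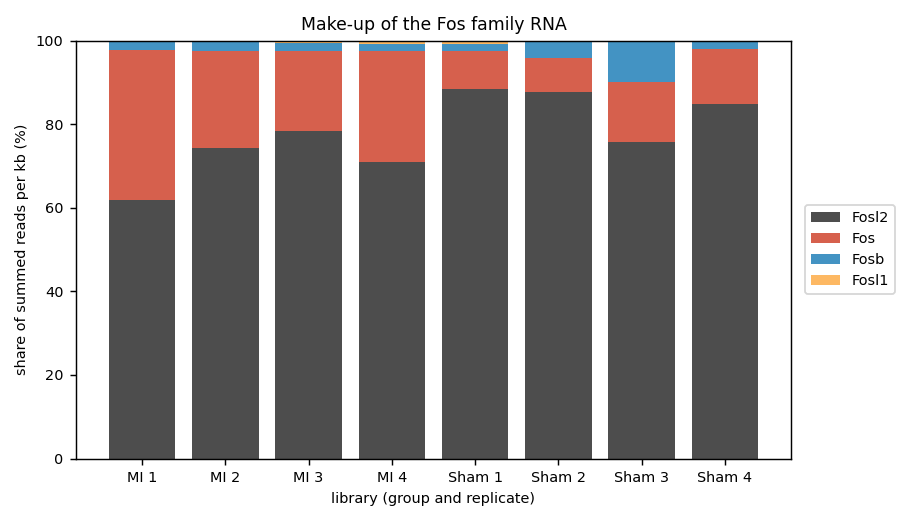
Share of each FOS family gene in their summed normalised reads per kb of exon, as stacked bars for the 4 MI and 4 Sham libraries. The Fos share is 19.2% or more in each MI library and 14.4% or less in each Sham library.

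Around the members, 109 other genes in 9 lists of related factors, regulators and known targets were tested, and 30 rose, 12 fell and 67 were not called. With scaling to total reads the counts were 65 and 3. The lists are described by counts, beside 20.8% of all loci higher and 20.1% lower. Their median log2 differences stand beside -0.02 for all loci. The lists, too, were chosen with earlier results of these data known.

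Of 10 other AP-1 and related bZIP factors, 3 rose, none fell and 7 were not called (median 0.38). Batf, an AP-1 factor of immune cells, averaged 95.1 ± 10.9 normalised reads in MI and 42.7 ± 11.3 in Sham hearts (log2 difference 1.16 ± 0.22, limma adjusted p = 0.00183). The small MAF genes Maff (0.88 ± 0.29, adjusted p = 0.0304) and Mafk (0.56 ± 0.17, adjusted p = 0.0254) overlapped between groups, and their calls were lost in 8 and 5 of 19 alternatives. Atf3 was 0.99 ± 0.83 and was not called (adjusted p = 0.372), but without Sham replicate 3 it was 1.87 and was called (adjusted p = 0.0313).

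Of 26 other immediate early genes, 8 rose, 1 fell and 17 were not called (median 0.38). Ctgf, a matricellular gene of fibrosis, averaged 65339 ± 19245 normalised reads in MI and 7658 ± 1938 in Sham hearts (log2 difference 3.08 ± 0.23, limma adjusted p = 9.52e-06). Nfkbiz, a nuclear regulator of NF-kB, was 1.32 ± 0.10 (adjusted p = 8.22e-06) and Socs3, a brake on cytokine signalling, was 1.24 ± 0.14 (adjusted p = 9.75e-05). Of these 26 genes, 20 were highest in Sham replicate 3 among Sham libraries, against 34.2% of all tested loci. In MI replicate 2, 13 were the highest among MI libraries, against 27.8% of all tested loci, and 10 were the lowest. The share of all loci lowest in that library was not counted.

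Of 13 SRF, TCF, CREB and MEF2 regulators, 3 rose, 2 fell and 8 were not called (median 0.01). Elk3, an SRF partner, was 0.60 ± 0.18 (limma adjusted p = 0.0231, a call lost in 4 of 19 alternatives), Mkl1, an SRF coactivator, was 0.46 ± 0.09 (adjusted p = 0.00247), and Mef2a was -0.38 ± 0.11 (adjusted p = 0.0156, lost with total scaling). Of 11 genes of the ERK cascade and its inhibitors, 4 rose, 1 fell and 6 were not called (median 0.32). Dusp4 (0.98 ± 0.23, adjusted p = 0.00681) and Dusp6 (0.64 ± 0.12, adjusted p = 0.00148) encode phosphatases of ERK, and Spred1 (0.64 ± 0.11, adjusted p = 0.000889) encodes an inhibitor upstream of it.

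Of 5 EGR and NR4A partners, none rose, 3 fell and 2, the NAB genes, were not called (median -0.28). The genes that fell encode the retinoid X receptors. Rxrg averaged 5241 ± 707 normalised reads in MI and 8919 ± 866 in Sham hearts (log2 difference -0.77 ± 0.10, limma adjusted p = 0.00026). Rxra was -0.60 ± 0.07 (adjusted p = 9.79e-05), and Rxrb was -0.28 ± 0.09 (adjusted p = 0.0259), with a sign that turned under total scaling (0.025).

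Of 11 genes of the MYC and MAX network, 1 rose, 4 fell and 6 were not called (median -0.21). Mxd3, a MAX partner, was 1.62 ± 0.38 (limma adjusted p = 0.00654), Mlxipl, a glucose-responsive factor, was -0.70 ± 0.08 (adjusted p = 0.000106), and Max itself was -0.39 ± 0.11 (adjusted p = 0.0171, lost with total scaling). Of 13 growth genes activated by MYC, 1 rose, 1 fell and 11 were not called (median 0.04). The one that rose was Ccnd2, cyclin D2 (0.36 ± 0.07, adjusted p = 0.00176), and the one that fell was Ppat, of purine synthesis (-0.41 ± 0.08, adjusted p = 0.00255, lost with total scaling).

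Of 13 genes with known AP-1 control, 10 rose, none fell and 3 were not called (median 0.998). Timp1, an inhibitor of matrix proteases, averaged 3198 ± 548 normalised reads in MI and 163 ± 51.9 in Sham hearts (log2 difference 4.32 ± 0.21, limma adjusted p = 8.95e-07). Ptgs2, the inducible cyclooxygenase, was 2.10 ± 0.26 (adjusted p = 0.000141). Il6 had 90.8, 33.8, 55.2 and 52.4 normalised reads in MI replicates 1 to 4, against 2.39, 0, 3.41 and 3.15 in Sham replicates 1 to 4, where no library was above 3 reads. None of the 7 heat shock genes was called (median 0.10), and Hsp90aa1, which had the smallest p, was 0.46 ± 0.20 (adjusted p = 0.0862). Hsp90aa1 was called without Sham replicate 3 (0.71, adjusted p = 0.000134) and with total scaling (0.77, adjusted p = 0.0047).

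**Figure D5:**
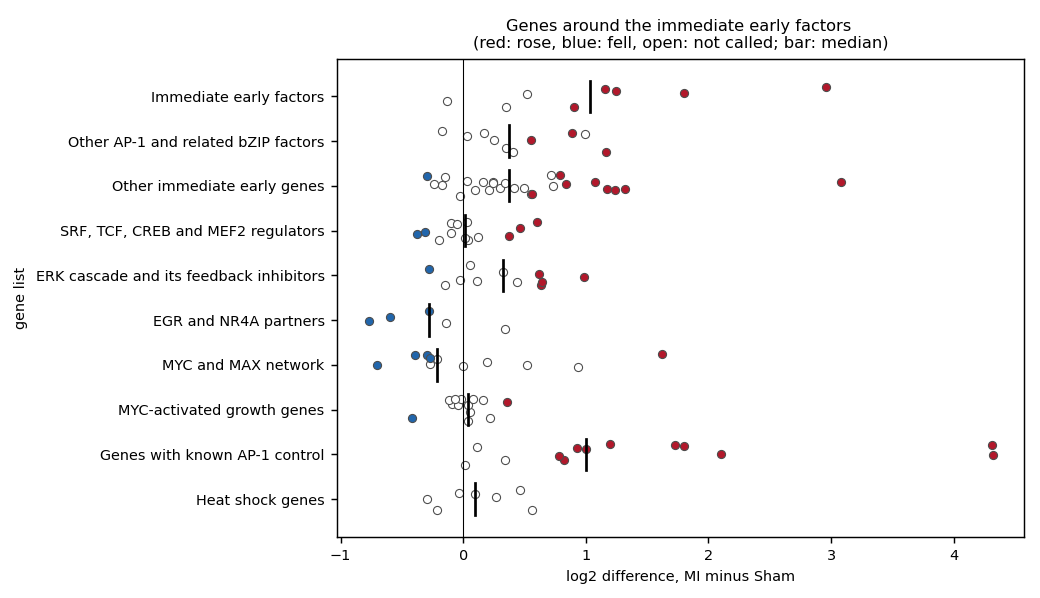
Difference in log2(value + 1), MI minus Sham, of the 8 tested members and of the tested genes in 9 related lists. Red points rose and blue points fell at a limma adjusted p under 0.05, and open points were not called. The bar is the median, 1.03 for the members. List medians ran from -0.28 (EGR and NR4A partners) to 0.998 (genes with known AP-1 control).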

How the data were processed

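Per the labels' protocols, Trizol was used for RNA isolation, and poly(A) libraries were read on an Illumina HiSeq2000. Per the submitters' processing notes HTSeq 0.5.4p2, DESeq, Cufflinks 2.0.2 and TopHat2 2.0.5 were used on mm9, with roles and settings not given in the sources used here. The deposited values are a normalised signal per locus and library, and the deposited annotation gives exon coordinates. In each library 100% of values were whole multiples of 1 step (tolerance 0.001), so reads could be recovered. A read was worth 0.663 to 1.58 normalised reads, and a floor of 3 reads 1.99 to 4.73.

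Loci were named by matching exon and intron lengths to GENCODE M21, with no coordinate carried between builds. Read counts of any 2 libraries of a group differed far beyond sampling noise (chi-square over its degrees of freedom 29.7 to 147). Groups were compared with limma-trend (limma 3.58.1) on log2(value + 1), which understates changes of low loci, over 19186 loci with a mean of at least 10, in R 4.3.3. It was tested on simulated data with 1 dispersion for all loci, which does not cover the wide spread of the most variable members. Alternatives were edgeR 4.0.16 and DESeq2 1.42.0 on recovered reads, other scalings, pseudocounts of 0.5 and 5, no filter, a mean of at least 50, robust variance, a replicate block and leaving out each library. Tables were made in Python 3.11.15. Named genes were the members, up to 3 called genes of each list with the largest log2 difference (or the smallest p), the 5 genes most like the most variable member, and Nppa, Postn and Atp2a2 as label checks. Members and lists were chosen with earlier results of these data known.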

Additional observations from a re-analysis of the deposited data

Results flagged for a closer look

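In 7 of 82 groups of 4 libraries examined, 1 library stood apart from the other 3. Its gap, as a share of the group's range, was beyond Dixon's 95% critical value. The gap was taken on normalised reads, not on the log2 scale. For independent groups of normally distributed values chance does this in about 1 group in 20. The groups here share the same 8 libraries and include genes picked for likeness to Nr4a1, so that rate need not hold. Sham replicate 3 was apart on the high side for Fos, with 752.6 normalised reads against 105.0 to 182.9 in the other Sham libraries. It was likewise apart for Fosb, with 899.2 against 32.2 to 160.6. Outside the members it was apart for Atf3 with 8258 against 395 to 1195, for Irs2 with 19723 against 1524 to 4571, and for Hsp90aa1 with 35536 against 17582 to 17952. For Spred1 it was apart on the low side, with 3218 against 3949 to 4041. MI replicate 2 was apart for Nppa, with 251068 against 407622 to 418466 in the other MI libraries.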

How the results depend on the processing

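Egr2, Myc and Junb were called higher in MI hearts in all 19 alternatives, and the number of members called was 4 or 5 higher and 0 lower throughout. Scaling to total reads shifted the median of all loci by 0.30 on the log2 scale and gave 8525 loci higher and 1498 lower in MI, against 3999 and 3855, and 65 and 3 related genes, against 30 and 12. With it Fosb was 0.17, Ddit4 0.23 and Rxrb 0.025. With edgeR on reads Nr4a1 was -0.14 and Sik1 -0.15, and with DESeq2 they were -0.14 and -0.16. Leaving out 1 library at a time gave log2 differences of -0.74 to 0.85 for Fosb, -0.067 to 1.42 for Nr4a1, -0.51 to 0.32 for Ddit4, -0.79 to 0.44 for Irs2 and -0.40 to 0.58 for Sik1. The median within-group SD of the members was 0.477 to 0.803 over these, the lowest without Sham replicate 3. The cause of these shifts was not tested. Same-numbered MI and Sham libraries had deviations that correlated weakly (correlations 0.146, 0.272, 0.160 and -0.00092), not above 0.1 in every pair, so the numbers were not taken to pair them. As a hint from the data, 3 of 4 MI libraries correlated best with their own number, 2 of these in both directions. A fit with the replicate number as a block called 5 members higher and 0 lower, 37 and 13 related genes and 4152 and 4056 loci. With it the SE of Nr4a1 was 0.39, against 0.96, the adjusted p of Egr1 was 0.00578, and Atf3 (adjusted p = 0.0333) and Runx3 (adjusted p = 0.00563) gained a call. Depth limits Fosl1 most, with 54 reads in MI and 19 in Sham hearts, and Sham libraries held as few as 24 reads of Fosb and 26 of Egr2.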
